A study of Mus musculus with 4 samples.

Results

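The cadherins, claudins and regulators of epithelial-mesenchymal transition (EMT) described here are 10 genes, chosen by symbol. Of these, 6 encode proteins of cell junctions or adhesion (Cdh1, Cdh2, Epcam, Cldn6, Cldn7 and Tjp1). The other 4 encode transcriptional repressors that drive EMT (Snai1, Snai2, Zeb1 and Zeb2). Each symbol matched 1 of the 54838 gene identifiers in the count tables through GENCODE M21, and all 10 were among the 15191 genes that passed the low-count filter. RNA sequencing was done on total RNA of mouse embryonic stem cells, which are cultured cells derived from the inner cell mass of the blastocyst. The knock-in line, MLC460, expresses p300, a histone acetyltransferase and transcriptional coactivator, with monomeric enhanced green fluorescent protein (mEGFP) at its N-terminus, a tag inserted at the native gene with CRISPR/Cas9. The wild-type line was E14 (E14Tg2a.4, strain 129/Ola) with unmodified p300, and the knock-in libraries carry the same cell type and strain labels. All cells were kept on gelatin in medium with 15% serum and 1000 U/ml leukemia inhibitory factor. There were 2 knock-in and 2 wild-type libraries, described by the submitters as biological replicates. A single knock-in line was sampled, so a difference between the lines cannot be told apart from one that arose when the line was derived.

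In epithelia, cadherins bind cells together at adherens junctions, claudins form the strands of tight junctions, and scaffold proteins tie both to the cytoskeleton. Embryonic stem cells grow as compact colonies held by E-cadherin. During EMT, which occurs in the embryo at gastrulation, Snail and ZEB proteins bind E-box sequences of junction genes and repress them, and N-cadherin comes to replace E-cadherin. The comparison asks whether the tagged line keeps the epithelial profile of its parent.

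Libraries held 18946731 to 26553998 counts assigned to genes. Wild-type 2 stood apart. Over 8951 genes, which are not independent of each other, its deviation from the library mean rose with the GC content of the transcript (Spearman rho 0.819). In the other 3 libraries rho was -0.631 to -0.463. Since that mean includes wild-type 2, its rise by itself pushes the others the opposite way, and their rho is no separate measure. For most named genes the difference is also given with a GC correction, which removes each library's fitted trend with GC content, or without that library. Levels, sums and ratios are uncorrected unless stated. Ep300, which encodes p300, differed by -0.10 on the log2 scale with a standard error (SE) of 0.15 and an adjusted p of 0.804 from edgeR, and counts over the whole gene do not separate tagged from untagged transcripts. As a check of the label, each of 10 embryonic stem cell markers had at least 1 CPM per kb of merged exon in every library, where CPM are counts scaled to a common library size. Their summed level was 4508 and 4158 CPM per kb in the knock-in libraries, and 4028 and 4080 CPM per kb in the wild-type libraries.

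The start regions of the genes were searched for the E-box CACCTG, read on both strands (CAGGTG on the printed strand is the same site), since this is the hexamer that Snail and ZEB proteins bind. RefSeq promoter entries (GRCm38.p6) matched 6 of the 10 genes, with 10 annotated starts. Cdh1, Cdh2, Snai2 and Zeb1 had no entry. In the 250 bases before the start, 4 of the 10 member starts held the hexamer, and 17.2% of all 32851 promoter entries did. The Epcam and Snai1 regions are printed whole because they hold the hexamer outside annotated exons of the gene, in a junction gene and in a repressor gene. Capitals mark the hexamer, and both sequences are on the plus strand, at chr17:87635729-87635978 for Epcam and chr2:167537945-167538194 for Snai1.
Epcam: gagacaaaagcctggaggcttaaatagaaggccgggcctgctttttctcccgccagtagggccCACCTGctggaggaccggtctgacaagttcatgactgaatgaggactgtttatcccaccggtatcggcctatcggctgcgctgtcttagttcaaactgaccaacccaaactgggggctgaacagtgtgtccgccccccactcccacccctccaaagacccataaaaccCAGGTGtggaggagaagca
Snai1: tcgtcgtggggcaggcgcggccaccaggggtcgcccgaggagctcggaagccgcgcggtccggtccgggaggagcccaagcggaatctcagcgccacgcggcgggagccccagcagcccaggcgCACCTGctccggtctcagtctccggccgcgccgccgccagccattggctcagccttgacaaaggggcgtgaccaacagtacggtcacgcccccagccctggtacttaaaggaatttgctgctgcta

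Epcam held 2 such hexamers, which begin 187 and 19 bases before the start, and 2.06% of all promoter entries held 2 or more. In Snai1 the hexamer begins 126 bases before the start. The claudin genes held it at 1 RefSeq start each, in windows that touch GENCODE exons of the same gene, so 30 bases around each site are shown (plus strand, at chr17:23679260-23679289 for Cldn6, and at chr11:69965312-69965341 and chr11:69965352-69965381 for Cldn7).
Cldn6: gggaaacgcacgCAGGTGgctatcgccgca
Cldn7 site 1: tttcttcctcttCACCTGgacgaggagggg
Cldn7 site 2: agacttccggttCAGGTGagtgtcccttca
The upstream start of Cldn7, the start of Tjp1 and the 4 starts of Zeb2, some of which overlap, did not hold these letters in the window searched. A match is a description of sequence, and binding was not measured here.

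Per kb of merged exon, the transcripts of Cdh1, Epcam, Tjp1 and Cldn6 were more abundant in both lines than those of all 4 EMT repressors, Cldn7 lay among the repressors, and the N-cadherin gene Cdh2 was close to the bottom of the order. Levels of different genes are compared as CPM per kb of merged exon, scaled between libraries by edgeR's trimmed mean of M-values (TMM). Averaged over the 4 libraries, the order was Cdh1, Epcam, Tjp1, Cldn6, Snai1, Cldn7, Zeb1, Snai2, Cdh2 and Zeb2. Cdh1 ranked above 96.7% of the genes tested, Epcam above 94.1%, Tjp1 above 84.4% and Cldn6 above 74.0%. Further down, Snai1 ranked above 37.5%, Cldn7 above 36.1%, Zeb1 above 32.7%, Snai2 above 13.2%, Cdh2 above 9.01% and Zeb2 above 0.395%. The ranges of the libraries overlapped between 3 pairs of neighbours, which are Snai1 with Cldn7, Cldn7 with Zeb1, and Snai2 with Cdh2. All other neighbours were separated in every library. The largest step, 5.96-fold, lay between Cldn6 and Snai1.

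The order in the lower part depended on the gene length used. With the longest coding transcript in place of merged exons, 5 of the 10 wild-type ranks changed, and with the median coding transcript 5 changed as well. For Zeb1 the median coding transcript is 0.9 kb long, against 10.3 kb of merged exons. Its mean level was 1.73 CPM per kb in knock-in and 1.40 CPM per kb in wild-type cells with merged exons, 3.07 in knock-in and 2.48 in wild-type cells with the longest transcript, and 19.8 in knock-in and 16.0 in wild-type cells with the median transcript. Cldn6 with the median transcript had 12.9 CPM per kb in knock-in and 17.3 CPM per kb in wild-type cells, so with that length Zeb1 stood above Cldn6 in knock-in cells and below it in wild-type cells. In wild-type cells Cdh1, Epcam, Tjp1 and Cldn6 kept ranks 1 to 4 under each of the lengths.

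**Figure D1:**
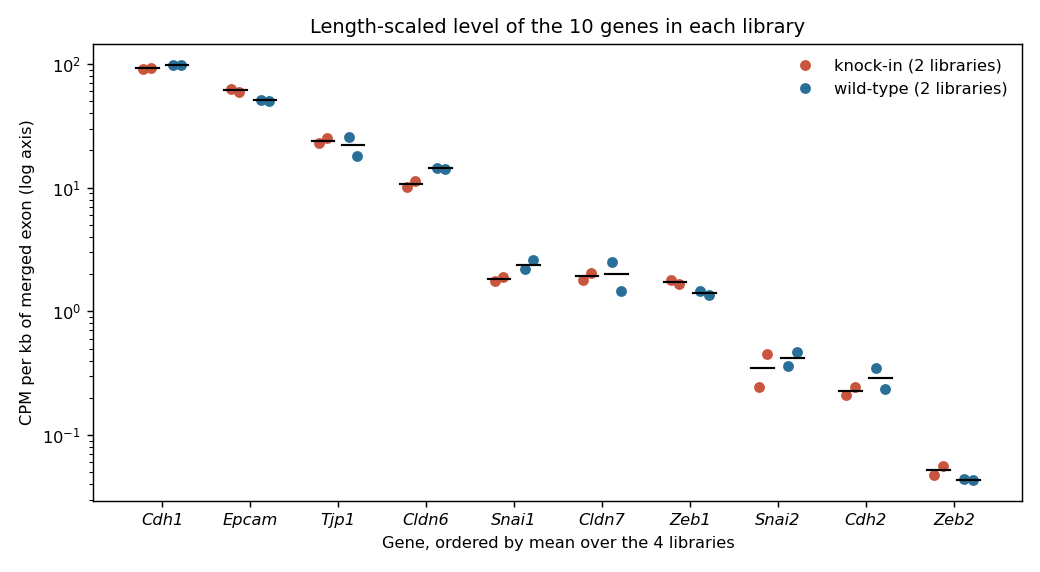
Length-scaled level of each of the 10 genes (CPM per kb of merged exon, log axis) in the 2 knock-in and the 2 wild-type libraries. Points are libraries and bars are group means. Cdh1, at 90.2 to 98.4 CPM per kb, stood at the top and Zeb2, at 0.0433 to 0.0564 CPM per kb, at the bottom in both lines.

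Cdh1 encodes E-cadherin, the adhesion molecule of epithelial and embryonic stem cells (ENSMUSG00000000303, GRCm38 chromosome 8, 106603351 to 106670246). It had 413 and 427 CPM in knock-in cells, against 447 and 449.9 CPM in wild-type cells. Both knock-in libraries lay below both wild-type libraries, by a small margin. The means were 419.9 ± 10.4 CPM in knock-in and 448 ± 2.29 CPM in wild-type cells (SD, n = 2 each). edgeR put the difference, knock-in over wild-type, at -0.09 on the log2 scale with SE 0.14, a 95% interval of -0.41 to 0.22 and an adjusted p of 0.805. The value under the GC correction was 0.019 (SE 0.11), so the sign rested on the handling of GC content. The interval without the correction spans 0.754-fold to 1.16-fold.

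Cdh2 encodes N-cadherin, the cadherin of neural and many mesenchymal cells (chromosome 18, 16588877 to 16809246). Only 41 and 37 reads were counted for it in knock-in libraries, and 77 and 42 reads in wild-type libraries. These gave 1.68 and 1.98 CPM in knock-in cells, against 2.80 and 1.91 CPM in wild-type cells, with overlapping groups. The wild-type libraries differed from each other 1.47-fold. The log2 difference of Cdh2 was -0.37 with SE 0.34, a 95% interval of -1.13 to 0.38 and an edgeR adjusted p of 0.673. Leaving out wild-type 1 gave -0.06, and leaving out wild-type 2 gave -0.63. Within each library the level of Cdh1 per kb was 432 and 380.4 times that of Cdh2 in knock-in cells, and 282 and 416 times in wild-type cells. The lower of the wild-type ratios came from wild-type 1, and the groups overlapped.

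Epcam encodes a surface glycoprotein of epithelial cells that embryonic stem cells also carry (chromosome 17, 87635979 to 87651129). In knock-in cells it had 138 and 129.8 CPM, against 112 and 110.5 CPM in wild-type cells. Both knock-in libraries were above both wild-type libraries. The means were 134 ± 5.78 CPM in knock-in and 111 ± 0.81 CPM in wild-type cells (SD, n = 2 each). On the log2 scale Epcam differed by 0.27 with SE 0.14, a 95% interval of -0.05 to 0.60 and an edgeR adjusted p of 0.497. Divided by the fitted GC effect, the levels were 148 and 137 CPM in knock-in libraries and 112 and 97.8 CPM in wild-type libraries. The log2 difference was then 0.44 with SE 0.11, and its edgeR adjusted p of 0.0567 also missed the threshold of 0.05. Leaving out wild-type 1 took Epcam past that threshold (0.28, adjusted p 0.0355 from edgeR), in a fit that called 32.1% of all genes. Leaving out wild-type 2 did not (0.25, adjusted p 0.205 from edgeR). The sign was positive in each of the 18 alternatives, with values of 0.21 to 0.54.

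Cldn6 and Cldn7 encode claudins of tight junctions, and Cldn6 is known as a claudin of embryonic and pluripotent cells. Cldn6 (chromosome 17, 23679249 to 23682446) had 17.4 and 19.5 CPM in knock-in cells, against 24.99 and 24.4 CPM in wild-type cells. Its groups did not overlap, and knock-in was the lower. The mean was 18.5 ± 1.48 CPM in knock-in and 24.7 ± 0.40 CPM in wild-type cells (SD, n = 2 each). The log2 difference was -0.42, with SE 0.18 and a 95% interval of -0.81 to -0.02. Among the 10 genes it alone had an unadjusted p under 0.05 (0.0397), and its edgeR adjusted p was 0.442. The value of Cldn6 was -0.40 when wild-type 1 was left out and -0.45 when wild-type 2 was left out. With the GC correction added, it was -0.14 without wild-type 1 and -0.36 without wild-type 2. These fits rest on a single wild-type library. They called Cldn6 as lower without the correction and did not call it with the correction. With all libraries the GC correction gave -0.25 with SE 0.14 and an edgeR adjusted p of 0.364.

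Cldn7 (chromosome 11, 69964779 to 69967885) had 3.49 and 3.96 CPM in knock-in cells, against 4.87 and 2.86 CPM in wild-type cells. Both knock-in libraries fell between the wild-type libraries. The wild-type pair differed 1.70-fold, from 134 and 63 reads. For Cldn7 the log2 difference was -0.06 with SE 0.31, a 95% interval of -0.77 to 0.64 and an edgeR adjusted p of 0.948. It was -0.40 when wild-type 2 was left out and 0.38 when wild-type 1 was. The GC correction gave 0.10 with all libraries, so the sign of Cldn7 turned with the correction and with the libraries used. Within a library, Cldn6 per kb was 5.66 and 5.58 times Cldn7 in knock-in cells, and 5.81 and 9.67 times in wild-type cells.

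Tjp1 encodes ZO-1, a scaffold that links tight and adherens junctions to actin (chromosome 7, 65296165 to 65527781). It had 178 and 195 CPM in knock-in cells, against 201 and 142 CPM in wild-type cells, and the low value was that of wild-type 2. Tjp1 differed by 0.12 on the log2 scale, with SE 0.19, a 95% interval of -0.30 to 0.54 and an edgeR adjusted p of 0.816. The value was 0.40 when wild-type 1 was left out (adjusted p 0.00156 from edgeR) and -0.13 when wild-type 2 was left out (adjusted p 0.602 from edgeR). A call in the first of these fits therefore compares the knock-in pair with wild-type 2 alone, the library that deviated with GC content.

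Snai1 encodes Snail, the repressor that starts EMT at gastrulation in the mouse embryo (chromosome 2, 167538195 to 167542814). In knock-in cells it had 2.87 and 3.05 CPM, against 3.56 and 4.18 CPM in wild-type cells. Knock-in lay below wild-type without overlap. The log2 difference of Snai1 was -0.38 with SE 0.27, a 95% interval of -0.98 to 0.22 and an edgeR adjusted p of 0.580. The GC correction gave -0.16 with SE 0.25. Snai2, which encodes Slug, a related repressor best known from neural crest (chromosome 16, 14705852 to 14709385), was near the limit of counting. It had 12 and 17 reads in knock-in and 20 and 21 reads in wild-type libraries, or 0.493 and 0.910 CPM in knock-in cells, against 0.726 and 0.954 CPM in wild-type cells. The groups overlapped, and the log2 difference was -0.28 with SE 0.49 and an edgeR adjusted p of 0.843. Its 95% interval of -1.39 to 0.84 includes a level 2-fold lower in knock-in cells.

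Zeb1 and Zeb2 encode zinc finger homeobox repressors, which repress Cdh1 and which the miR-200 family holds down in epithelial cells. Zeb1 (chromosome 18, 5591860 to 5775467) had 18.4 and 17.1 CPM in knock-in cells, against 14.9 and 13.9 CPM in wild-type cells. Here the knock-in libraries were above the wild-type libraries without overlap. For Zeb1 the log2 difference was 0.30 with SE 0.18, a 95% interval of -0.11 to 0.72 and an edgeR adjusted p of 0.527. The GC correction gave 0.19 with SE 0.14. Zeb2 (chromosome 2, 44983632 to 45117395) had 23 and 21 reads in knock-in and 24 and 19 reads in wild-type libraries. That is 0.944 and 1.12 CPM in knock-in cells, against 0.872 and 0.863 CPM in wild-type cells, with the knock-in values higher by less than their counting error. For knock-in 1 the exact Poisson 95% interval, which covers counting error only, was 0.599 to 1.42 CPM. The log2 difference of Zeb2 was 0.25 with SE 0.41, a 95% interval of -0.68 to 1.18 and an edgeR adjusted p of 0.833. Exons of the antisense gene Zeb2os overlap 653 bases of Zeb2, and those of Gm10125, on the opposite strand, 198 bases of Zeb1. Reads there were counted for neither partner in the unstranded column.

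The shares of the 2 repressors with the higher levels differed between the lines. Zeb1 made up 46.5% and 41.1% of the summed CPM per kb of the 4 repressors in knock-in cells, against 35.9% and 30.4% in wild-type cells. The share of Snai1 was 45.9% and 46.4% in knock-in cells, against 54.2% and 58.0% in wild-type cells. Neither share overlapped between the lines, but both depend on the gene lengths used, and no test was run on them. Zeb1 and Snai1 make up most of the sum, so a rise in the share of either lowers the other. The 2 shares are therefore not separate results. Transcripts of Snai1 have 59.8% GC and those of Zeb1 46.1%. The part of GC content in these shares was not tested. Divided by the fitted GC effect, Snai1 had 3.11 and 3.29 CPM in knock-in and 3.63 and 3.51 CPM in wild-type libraries, and Zeb1 had 17.8 and 16.3 CPM in knock-in and 14.1 and 16.0 CPM in wild-type libraries. The groups still did not overlap for either gene.

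As a group, 0 of the 10 genes were past the threshold of 0.05 after adjustment in the edgeR fit of all libraries, which called 0.0658% of all 15191 genes. None passed with DESeq2 or limma-voom either, nor with the GC correction, under which 1.62% of all genes did. At an unadjusted p under 0.05 the count was 1 of 10, against 10.9% of all genes. Knock-in and wild-type libraries did not overlap for 6 of the 10 (Epcam, Zeb1 and Zeb2 above, and Cdh1, Cldn6 and Snai1 below), and for 47.4% of all genes. The median log2 fold change of the 10 was -0.08, beside 0.00098 over all genes tested, and single values ran from -0.42 to 0.30. With the GC correction the median was 0.04, beside 0.03 over all genes, so its sign turned with the correction. A p that misses the threshold does not show that the lines are alike. The 95% intervals from edgeR with all libraries exclude a 2-fold difference for Cdh1, Epcam, Cldn6, Cldn7, Tjp1 and Zeb1, and they do not for Cdh2, Snai2 and Zeb2. For Snai1 the lower bound, -0.98, lay at the edge of 2-fold, and it is not counted with either.

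**Figure D2:**
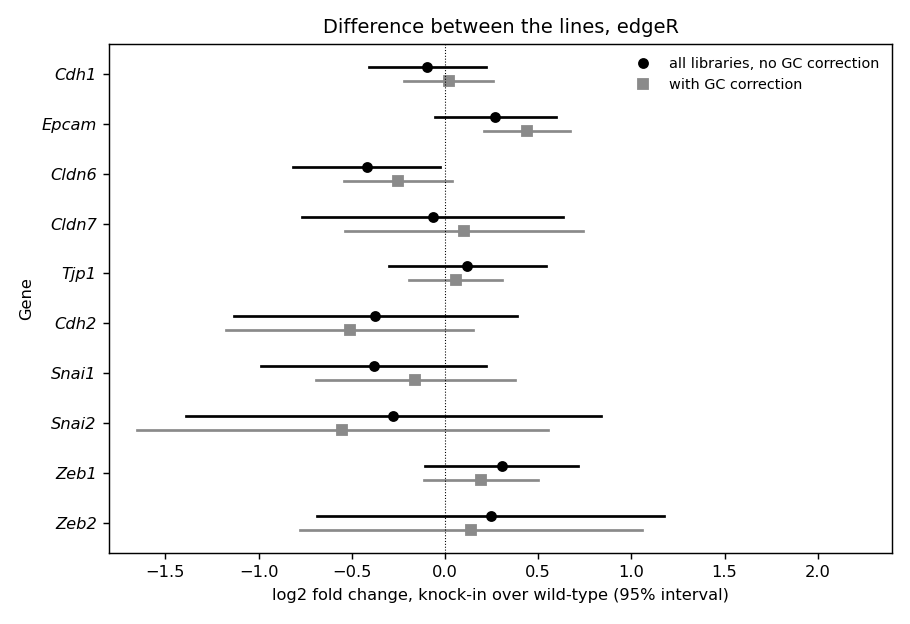
Log2 fold change of each gene, knock-in over wild-type, with its 95% interval from edgeR (2 libraries per line). Black circles are the fit without and grey squares the fit with the GC correction. Without it the interval of Cldn6, -0.81 to -0.02, is the only one that lies on 1 side of 0, and with it that of Epcam is.

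Within the cadherin and claudin families the 2 lines expressed the same few members at high levels. After Cdh1 came Cdh3, which encodes P-cadherin, at 7.03 and 7.84 CPM per kb in knock-in cells and 9.86 and 9.95 CPM per kb in wild-type cells. Of the 11 other cadherins of the list, Cdh3 and Cdh4 were above Cdh2 in each library, Cdh15 (0.139 and 0.247 CPM per kb in knock-in cells, against 0.223 and 0.419 CPM per kb in wild-type cells) overlapped it, and Cdh16 had no read in any library. The most abundant claudin was not a member of the 10 but Cldn4, at 35.6 and 37.2 CPM per kb in knock-in cells and 36.5 and 45.2 CPM per kb in wild-type cells. It was followed by Cldn6, Cldn12, Cldn3 and Cldn7. Cldn12 had 9.91 and 9.77 CPM per kb in knock-in cells and 8.87 and 7.29 CPM per kb in wild-type cells. Cldn3 had 3.69 and 2.93 CPM per kb in knock-in cells and 4.53 and 4.11 CPM per kb in wild-type cells. Cldn8, Cldn16, Cldn22, Cldn23 and Cldn24 had no assigned read, although for Cldn22 all exons lie within exons of another gene, where reads are not assigned.

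**Figure D3:**
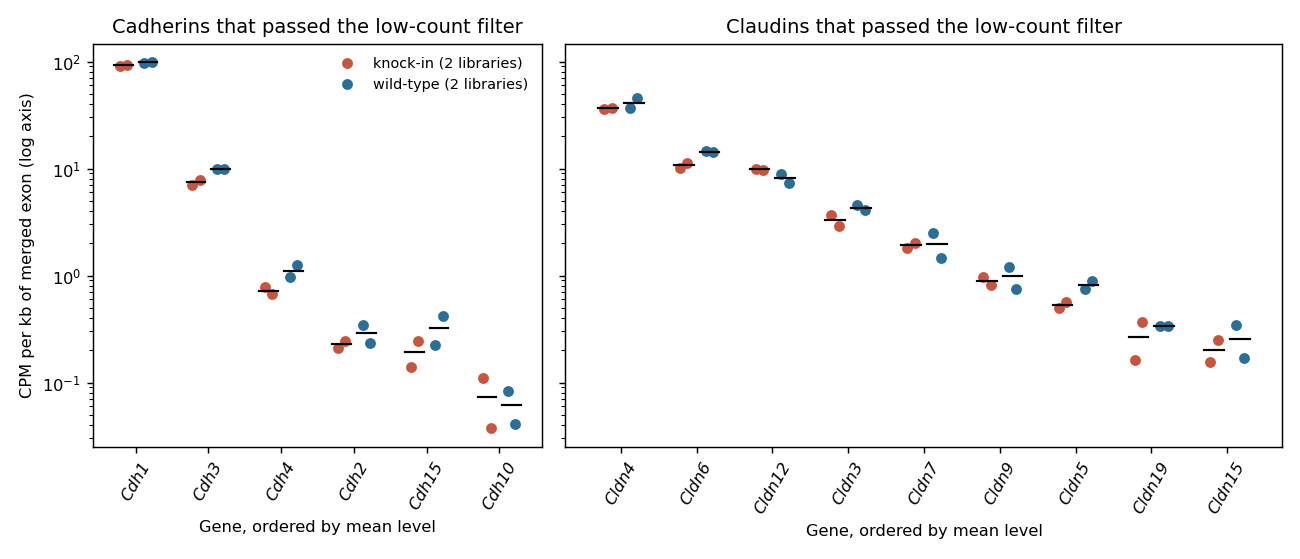
Length-scaled level (CPM per kb of merged exon, log axis) of the cadherins (left) and claudins (right) that passed the low-count filter, in each library. Points are libraries and bars are group means. Cdh1 stood 9.88 to 12.8 times above Cdh3 over the libraries, and Cldn4 above Cldn6 in both lines.

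Around the 10 genes, 6 lists of junction, epithelial and EMT genes were read from the same fit. Of their 143 genes 109 were tested, and 0 passed over all genes (12 had an unadjusted p under 0.05, of which 2 were higher and 10 lower). Over all genes 1662 of 15191 (10.9%) had one, of which 538 were higher and 1124 lower. The lists' median log2 fold change was -0.07, beside 0.00098 over all genes. With the GC correction it was 0.009, beside 0.03 over all genes. Limma-voom also called 0 of them, and 4 of 15191 genes over all. DESeq2, run without the low-count filter, called 2 of 135 list genes as lower (Smad3 and St14). It called 82 of the 27017 genes it fitted. After the GC correction 3 of the 109 passed: Klf4 as higher, and St14 and Smad3 as lower. Over all genes 246 of 15191 (1.62%) did.

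Levels of the partners of the cadherins varied widely. Of 25 cadherin, catenin and nectin genes 16 were tested and 0 passed (median log2 fold change -0.12, and -0.04 with the GC correction). Ctnnb1, which encodes beta-catenin, had 159 and 154 CPM per kb in knock-in cells and 154 and 187 CPM per kb in wild-type cells (log2 difference -0.13, SE 0.15). Ctnna1, for the alpha-catenin that couples cadherin to actin, had 133 and 129.8 CPM per kb in knock-in cells and 112 and 118 CPM per kb in wild-type cells (0.19, SE 0.14). For the nectin gene Nectin2 the value was -0.14 (SE 0.16). With the GC correction the log2 differences were -0.06 for Ctnnb1, 0.19 for Ctnna1 and 0.09 for Nectin2. At the other end, 8 of the 25 were under 0.1 CPM per kb in every library, the alpha-catenin genes Ctnna2 and Ctnna3 among them.

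In the tight junction and polarity list 29 of 42 genes were tested and 0 passed (median log2 fold change -0.07, and 0.02 with the GC correction). Among its most abundant members were Prkci, an atypical protein kinase C of the polarity complex (0.21, SE 0.15), and Jam2, for a junctional adhesion molecule (-0.06, SE 0.14). The GC correction gave 0.02 for Prkci and -0.22 for Jam2. Of 9 desmosome genes 7 were tested and 0 passed. Their median log2 difference was -0.34, but -0.14 with the GC correction, -0.16 without wild-type 1 and -0.19 without wild-type 2. Pkp4, Pkp2 and Dsg2, the most abundant, had 0.07 (SE 0.14), -0.17 (SE 0.15) and 0.04 (SE 0.16). Under the GC correction they had 0.18, -0.09 and -0.07. When wild-type 2 was left out, a fit that called 4.39% of all genes, the desmoplakin gene Dsp (-0.59, adjusted p 0.00014 from edgeR) and Perp (-0.60, adjusted p 0.0149 from edgeR) passed as lower. When wild-type 1 was left out, the value was -0.06 for Dsp, -0.42 for Perp and -0.59 for the plakophilin gene Pkp3. That fit compares the knock-in pair with wild-type 2 alone. With the GC correction added to it, Dsp had 0.04, Perp -0.54 and Pkp3 -0.23. Without wild-type 2, Pkp3 had -0.16. The GC correction with all libraries called none of them in edgeR (Dsp -0.25, adjusted p 0.417, Perp -0.54, adjusted p 0.0982, and Pkp3 -0.14, adjusted p 0.653). Dsp had 3.81 and 3.92 CPM per kb in knock-in cells, against 5.76 and 4.04 CPM per kb in wild-type cells. These 3 genes were named after their values were seen.

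Among 24 epithelial regulators and surface genes 20 were tested and 0 passed (median -0.11, and -0.06 with the GC correction). Klf4, a Krüppel-like factor shared by epithelium and naive stem cells, differed by 0.30 on the log2 scale with SE 0.14 and an edgeR adjusted p of 0.466. Under the GC correction it passed as higher in knock-in cells (0.50, SE 0.11, adjusted p 0.0378 from edgeR). Klf5 had 0.01 (SE 0.14) and the protease inhibitor gene Spint2 -0.08 (SE 0.15). With the GC correction Klf5 had -0.08 and Spint2 0.06. St14, the gene of the epithelial protease matriptase, was named after its values were seen. It had 5.16 and 5.85 CPM per kb in knock-in cells, against 8.69 and 9.75 CPM per kb in wild-type cells, without overlap. The log2 difference of St14, -0.75 with SE 0.16, did not pass in edgeR (adjusted p 0.182), and the GC correction gave -0.58 with SE 0.11 (adjusted p 0.0146 from edgeR).

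Of 23 EMT-promoting factors 17 were tested and 0 passed (median log2 fold change -0.15, and 0.008 with the GC correction). Tcf3, Zfp281 and Smad4 were the most abundant, with -0.06 (SE 0.17), 0.25 (SE 0.18) and 0.18 (SE 0.15). Under the GC correction they had 0.19, 0.02 and 0.24. Smad3 and Snai3 were named after their values were seen. Smad3, which carries TGF-beta signals to the nucleus, had 2.87 and 3.24 CPM per kb in knock-in cells, against 5.83 and 6.03 CPM per kb in wild-type cells. The log2 difference of Smad3 was -0.96 with SE 0.17 and an edgeR adjusted p of 0.126, and the GC-corrected fit called it as lower (-0.81, SE 0.13, adjusted p 0.00400 from edgeR). Snai3, the third Snail family gene, had 2.17 and 1.94 CPM per kb in knock-in cells, against 3.55 and 5.38 CPM per kb in wild-type cells. The groups did not overlap, and the log2 difference of Snai3 was -1.11 with SE 0.28 and an edgeR adjusted p of 0.237. The GC correction gave -0.87 with SE 0.23 (adjusted p 0.0658 from edgeR). Twist1, which encodes a further EMT factor, had 0.625 to 0.893 CPM per kb over the libraries, and Twist2 had no assigned read, with 46.5% of its exon bases shared with another gene.

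All 20 partners of the repressors, such as deacetylases and LIM proteins, were tested and 0 passed (median log2 fold change 0.03, and 0.12 with the GC correction). Hdac1, a histone deacetylase recruited by Snail, had -0.07 (SE 0.16), Ajuba -0.14 (SE 0.17) and the arginine methyltransferase gene Prmt5 0.12 (SE 0.14). The GC correction gave 0.02 for Hdac1, 0.05 for Ajuba and 0.19 for Prmt5.

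**Figure D4:**
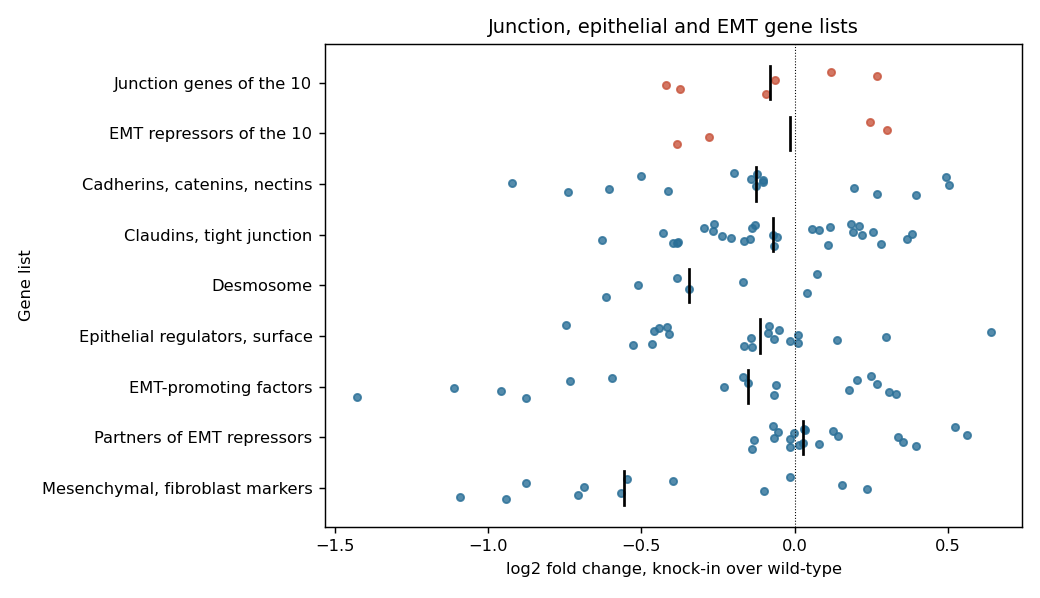
Log2 fold change, knock-in over wild-type, of each tested gene by list. Points are genes, in red for the 10 genes and in blue for the other lists, and black bars are medians. The lists of junction and EMT genes had medians between -0.34 and 0.03, and the mesenchymal and fibroblast markers a median of -0.56.

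Markers of mesenchyme and fibroblasts were measured in the same libraries. Of 20, 12 were tested and 0 passed (median -0.56, and -0.41 with the GC correction). At an unadjusted p under 0.05 from edgeR 7 of the 12 were lower and 0 higher, against 10.9% of all genes in either direction. Knock-in and wild-type libraries did not overlap for 9 of the 12 (1 above and 8 below), and for 47.4% of all genes. With the GC correction Pdgfrb passed as lower (-0.71, SE 0.17, adjusted p 0.0429 from edgeR). Their summed level was 358 and 365 CPM per kb in knock-in libraries, against 373 and 419 CPM per kb in wild-type libraries, mostly from Fn1, Vim and Sparc. The intermediate filament gene Vim had 115 and 99.6 CPM per kb in knock-in cells and 88.4 and 129 CPM per kb in wild-type cells. S100a4, Tagln and Lum had no assigned read, with 51.7% of the exon bases of S100a4 and 67.9% of those of Tagln shared with other genes. Dcn, Postn and Col3a1 were under 0.1 CPM per kb in every library. In bulk RNA, fewer cells of a type and less RNA per cell cannot be told apart, and the part of these markers in the values of the 10 genes was not tested. Markers of endoderm summed to 3.25 and 2.94 CPM per kb in knock-in and 4.91 and 5.22 CPM per kb in wild-type libraries. For mesoderm the sums were 5.50 and 4.86 in knock-in and 6.17 and 5.56 in wild-type libraries, for trophoblast 30.04 and 28.7 in knock-in and 33.2 and 36.0 in wild-type libraries, and for the neural list 79.2 and 73.4 in knock-in and 73.2 and 119 in wild-type libraries. In the trophoblast list the GC-corrected fit called Tfap2c as higher (0.53, SE 0.11, adjusted p 0.0269 from edgeR). It called the keratin gene Krt19 of that list as lower (-1.40, SE 0.18, adjusted p 0.00083 from edgeR). Across these 4 lists 1 gene passed in the edgeR fit of all libraries without that correction. This was Krt19, as lower (-1.59, SE 0.21, adjusted p 0.0478 from edgeR). Krt19 was also called with DESeq2 (adjusted p 2.2e-06) and in edgeR with the replicate block (adjusted p 3.3e-06). It missed the threshold with limma-voom (adjusted p 0.0600) and in edgeR without knock-in 2 (log2 difference -1.48).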

How the data were processed

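RNA of 2 knock-in and 2 wild-type libraries was sequenced after TruSeq library preparation, per the labels. The deposited tables hold raw counts of reads per gene, and the tools and build listed in the submitters' processing notes are STAR 2.5.3a, Trim Galore and GRCm38 (mm10). Which annotation release the authors counted on is not given in the sources used here. GENCODE M21 matched 54809 of 54838 identifiers. The unstranded column was used because reads did not follow strand (50.2% to 50.5% of the single-strand counts were in the reverse column). Summary rows (15.8% to 18.0% of reads, unmapped and ambiguous reads among them) were left out.

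Differences were tested with edgeR 4.0.16 in R 4.3.3: TMM scaling, filterByExpr (minimum count 10), the quasi-likelihood F test on genotype with all 4 libraries, and Benjamini-Hochberg adjustment over all 15191 genes at 0.05. Each SE is the size of the log2 fold change over the root of its F statistic. Levels are TMM-scaled CPM, divided by kb of merged exon to compare genes. The GC correction fitted each library's deviation in log2 CPM on transcript GC content by a spline with 5 degrees of freedom, then used the fit as an offset. Alternatives also used DESeq2 1.42.0, limma-voom (limma 3.58.1), other filters, scalings, lengths and sets of libraries. Fits were tested on simulated data.

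The members, lists and settings were chosen with earlier results of these data known. Besides the 10 genes and Ep300, up to 3 genes per list were named: those past the threshold with the largest change, or otherwise the most abundant. A gene that this rule named is not reported here. P-values measure only the spread between these libraries.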

Additional observations from a re-analysis of the deposited data

How the results depend on the processing

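Of the 10 genes, 0 were called with all libraries under DESeq2 size factors, other filters, single-strand counts, DESeq2, limma-voom, the GC correction or the replicate block, and 1 (Epcam, as higher) under the replicate block with GC correction. When a wild-type library was left out, Cldn6 was called as lower in either case, and Epcam and Tjp1 as higher without wild-type 1. Leaving out a knock-in library called no member. When the GC correction was added, 1 (Epcam) was called without wild-type 1 and 0 without each other library. Snai2 and Zeb2 did not pass the stricter filter. The count over all genes was 10, against 4 with limma-voom, 82 with DESeq2, 354 with no low-count filter, 197 with the replicate block, 246 with the GC correction and 454 with both. It was 16 to 5015 when a library was left out, the highest without wild-type 1. Adding the GC correction gave 160 without knock-in 1, 196 without knock-in 2, 1510 without wild-type 1 and 676 without wild-type 2. Of the genes in the 6 lists 0 were called, against 3 with no low-count filter, 2 with the replicate block, 2 with DESeq2, 3 with the GC correction and 4 with the replicate block and GC correction. When a library was left out 0 to 28 were called. The list count under the GC correction was 1 without knock-in 1, 2 without knock-in 2, 15 without wild-type 1 and 6 without wild-type 2. Where 1 library is left out, the spread comes from the remaining pair, and the lone library is assumed to vary alike.

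Signs turned for 5 genes. Cdh1 had 0.019 with the GC correction and 0.019 with the replicate block added to it. With the GC correction and a library left out, Cdh1 had 0.043 without knock-in 1, 0.0054 without knock-in 2, 0.041 without wild-type 1 and -0.013 without wild-type 2. Cldn7 had 0.10 with the GC correction and 0.15 with the block added, and ran from -0.40 to 0.38 when a library was left out. With the GC correction as well, Cldn7 had 0.19 without knock-in 1, 0.029 without knock-in 2, 0.69 without wild-type 1 and -0.31 without wild-type 2. Tjp1 ran from -0.13 to 0.40, and had -0.080 with the GC correction and no wild-type 2. Snai2 ran from -0.75 to 0.10, and Zeb2 from 0.13 to 0.35, with -0.00052 under the GC correction without wild-type 1. The cause was not tested. The order of wild-type levels changed for 5 genes with the median and 5 with the longest coding transcript length, an alternative added after the data were seen. Deviations of same-numbered libraries from their group means correlated at -0.176 over 8951 genes, which are not independent. With 2 libraries per line this cannot settle whether the replicate numbers pair the libraries. With the replicate block the lower bound of the Snai1 interval was -1.05. A crossed pairing, added after the data were seen, gave 509 calls over all genes and 4 in the lists. The low counts of Cdh2, Snai2 and Zeb2 limit what these libraries can show.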
